A study of Capra hircus with 3 samples.

Results

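The endothelial barcodes described here came from the droplet single-cell library labelled goat (Capra hircus) fetal testis at embryonic stage E125, and each carried RNA of CA4. A barcode belonged to the set if it had at least 1 UMI (unique molecular identifier, 1 captured RNA molecule) of CA4 and at least 4 UMIs over at least 3 of 8 endothelial genes, namely CDH5, ROBO4, SOX18, TIE1, ESAM, KDR, EGFL7 and CLDN5. It also had at least 1000 UMIs in all and at most 20% mitochondrial UMIs. By this rule 499 barcodes were members, out of 24344 barcodes deposited for the whole series. They were compared with the 290 endothelial barcodes of the same library in which CA4 was at 0 UMIs, called CA4-0 barcodes below. The study sampled male fetal goats at E85, E105 and E125, each stage giving a single library of testes dissociated with enzymes and run on a 10x 3′ kit. Strain, genotype, treatment and the number of animals behind each library are not given.

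CA4 encodes carbonic anhydrase 4, an enzyme tethered to the outer cell surface that converts carbon dioxide and water to bicarbonate and protons. In the mammalian lung and several other organs it lines the lumen of capillaries and is used as a marker of one type of capillary endothelial cell. Blood vessel endothelium is divided along the vascular tree into arterial, capillary and venous cells. NOTCH signalling and its targets mark the arterial side, and adhesion molecules stored for release, such as SELP and VWF, are most abundant on the venous side. Lymphatic endothelium forms a separate lineage that depends on PROX1.

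With a single library per stage, none of the differences has a replicate check, and no test or p-value is given. A level is a gene's share of a group's summed UMIs, in CPM (parts in 1e6). A ratio is the CPM of CA4 barcodes over that of CA4-0 barcodes unless stated, with an exact 95% interval that covers counting error only. A gene was compared where it had at least 50 UMIs over both groups, and it is counted as higher at a ratio of at least 2 and as lower at a ratio of at most 0.5. Because CA4 and the rule genes chose the members from the same barcodes, all differences between CA4 and CA4-0 barcodes are descriptions of these cells.

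The E125 library held 8346 barcodes and 49692252 UMIs, with a median of 3043.5 UMIs, and 7325 barcodes passed the limits on depth and mitochondrial RNA. Its content went against its testis label. Over kept barcodes ZP3, an egg coat protein gene, was at 1.17 CPM in the E85 library, 2.51 CPM in E105 and 2109 CPM in E125. AMH, the Sertoli cell hormone gene, was at 1401, 3817 and 31.6 CPM in that order. Stage, tissue and library can therefore not be told apart, and "E125" below means the library labelled so. Pairs of libraries shared 9 to 14 barcode sequences, and 0 members shared theirs.

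Endothelial barcodes made up 10.8% of kept barcodes at E125 (789 of 7325), and 63.2% of them had a UMI of CA4 (499 of 789, 95% interval 59.8 to 66.6%). Members held a median of 5 CA4 UMIs and at most 130, with 71 members at 1 UMI, 53 at 2 UMIs, 207 at 3 to 9 UMIs and 168 at 10 or more. At the lower edge of the rule 5 members had only 4 UMIs of the 8 rule genes, and 41 had just 3 of those genes. Just outside it were 58 barcodes with 3 rule gene UMIs, of which 14 had CA4. A further 122 had at least 4 such UMIs but from fewer than 3 genes, and 35 of these had CA4. CA4 detection followed depth: it was found in 50.7% of endothelial barcodes with 1000 to 2000 UMIs and in 79.2% of those with 20000 or more. The median depth was 6584 UMIs in CA4 barcodes, against 4480.5 UMIs in CA4-0 barcodes, and the median mitochondrial share was 3.93% and 4.00%.

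CA4 RNA in the E125 library lay almost wholly in endothelial barcodes. The 499 members held 96.0% of its UMIs (5312 of 5535), and the 6536 kept barcodes outside the endothelium held 223 UMIs in 130 barcodes, or 1.99% of them. The gene (ENSCHIG00000026507 in the files) was at 602 CPM in E125 endothelium, against 4.85 CPM in E105 endothelium and 6.43 CPM in E85 endothelium. With every barcode reduced at random to 2000 UMIs, CA4 was detected in 51.7% of E125 endothelial barcodes (373 of 722, 47.9 to 55.4%), in 0 of 237 at E105, where a count of 0, taken as 3 counts, allows a UMI of CA4 in up to 1.27% of barcodes at that depth, and in 3 of 271 at E85. Other E125 cell classes, taken by marker genes and set at the same depth, ranged from 0 of 104 lymphoid barcodes to 4.58% of mesothelial ones (7 of 153). Stromal barcodes stood at 0.517% and mural barcodes, the pericytes and smooth muscle around vessels, at 0.447%. The median depth before thinning was 5791 UMIs in E125 endothelium, 3027.5 UMIs in stromal and 23817 UMIs in mesothelial barcodes.

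**Figure D1:**
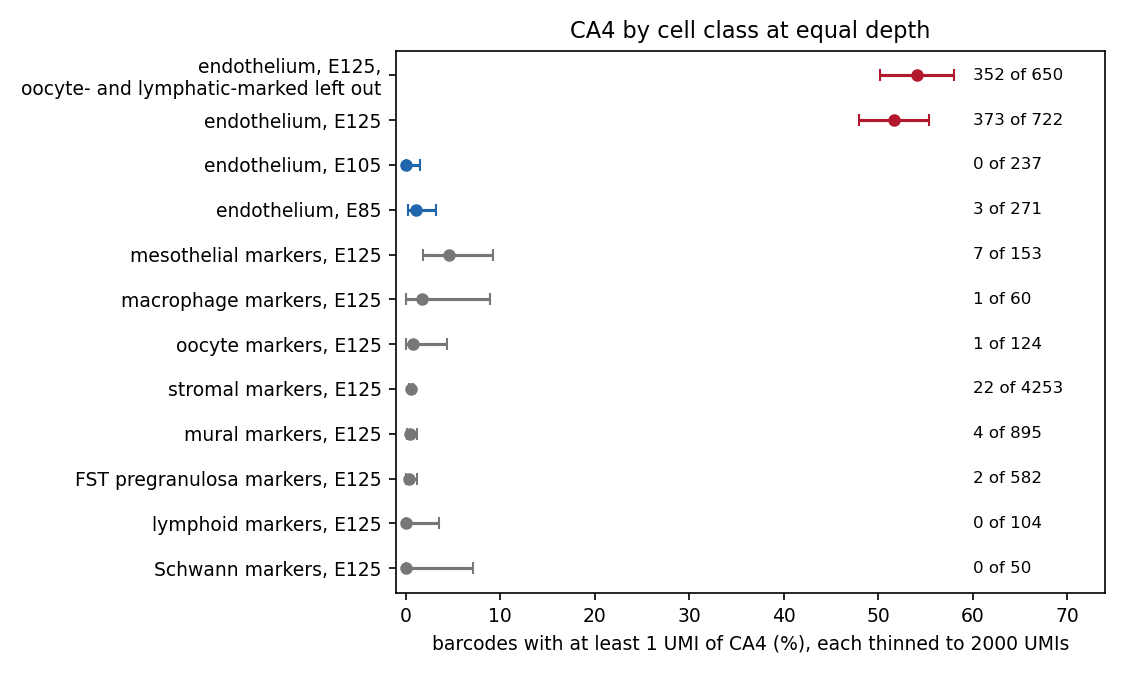
Share of barcodes with at least 1 UMI of CA4 after thinning each barcode to 2000 UMIs, in percent, with exact 95% intervals; the counts stand at the right. E125 endothelium lies at 51.7%, or 54.2% without oocyte- and lymphatic-marked barcodes, and every other class shown lies at 4.58% or below.

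The rule also admitted barcodes that carried markers of other lineages. Oocyte markers (at least 4 UMIs over at least 3 genes) marked 18 CA4 and 8 CA4-0 barcodes, and these deep barcodes held 27.4% and 28.1% of each group's UMIs. CA4 was at 68.3 CPM in the 18 oocyte-marked members, against 843 CPM in all members. Lymphatic markers (a UMI of PROX1 or at least 5 UMIs of CCL21) marked 3 CA4 and 49 CA4-0 barcodes, so that 17.3% of the CA4-0 UMIs came from lymphatic-marked barcodes. Results are therefore given for all barcodes and again without both kinds, which left 478 CA4 and 235 CA4-0 barcodes. That second comparison was chosen after seeing the data. By the limits used for oocyte markers, stromal markers marked 147 CA4 and 54 CA4-0 barcodes, and mural markers 103 and 32. In the second comparison 133 and 43 stromal-marked and 89 and 27 mural-marked barcodes remained. These counts were not set to equal depth, and CA4 barcodes were deeper.

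The rule required endothelial genes in both groups, so similar levels of the rule genes were partly set by it. Of the 4 genes listed with CA4 as markers of these cells 0 passed the 2-fold limit over all barcodes. SOX18, a vascular transcription factor and a rule gene, was at 626 CPM in CA4 barcodes and 723 CPM in CA4-0 barcodes (ratio 0.866, 0.819 to 0.916). JAG2, a NOTCH ligand, was at 166 and 267 CPM (ratio 0.624), and MECOM, a transcription factor of arterial endothelium, at 189 and 240 CPM (ratio 0.787). ID1, a target of BMP signalling, was the 1 gene of these 4 with a ratio above 1, at 2212 against 1632 CPM (ratio 1.36, 1.31 to 1.40). Without marked barcodes the ID1 ratio was 1.09. In the 6536 other barcodes of the library JAG2 was at 10.3, MECOM at 1.42 and ID1 at 172 CPM; SOX18 is 1 of the 8 rule genes, so its low level there was fixed by the rule. In the lymphatic-marked CA4-0 barcodes JAG2 was at 47.4, MECOM at 15.8 and ID1 at 343 CPM. SOX18, JAG2 and MECOM thus did not set CA4 barcodes apart as higher from the other endothelial barcodes of E125. The capillary part of the label rests mainly on CA4. FABP4, FCN3, CD36 and TMEM100, which mark capillaries in other organs, were at 0 or under 2 CPM in CA4 barcodes. Other capillary genes were present, with PLVAP at 124, RGCC at 24.9 and MFSD2A at 18.4 CPM without marked barcodes. Capillary genes had no common direction against CA4-0 barcodes, so the cells are called CA4 barcodes here.

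Over all endothelial barcodes 6930 genes were compared, of which 76 were higher in CA4 barcodes (1.1%) and 144 were lower (2.08%), with a median log2 ratio of 0.00. Without the marked barcodes 5704 genes were compared, 60 were higher (1.05%) and 141 were lower (2.47%), with a median log2 ratio of -0.04. TMM scaling of the group sums, a shift of -0.08 on the log2 scale, turned that split to 82 higher and 107 lower. Of the 15 genes ranked first as higher in each comparison, 10 were shared, against 2 of the 15 ranked first as lower. Lymphatic genes were among those ranked first as lower over all barcodes. CCL21, a lymphatic chemokine, was at 9.04 CPM in CA4 barcodes and 8859 CPM in CA4-0 barcodes, but at 9.55 and 11.1 CPM once marked barcodes were out. FLT4, the lymphatic VEGF receptor, was at 27.3 and 245 CPM at first, and at 36.0 and 64.1 CPM without marked barcodes. RELN had ratios of 0.0972 and 0.445, and MMRN1, FGL1 and TFPI had too few UMIs to be compared once marked barcodes were out.

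The genes ranked first as higher in CA4 barcodes included a regulator of nitric oxide synthase, a cytokine receptor and a surface peptidase. NOSTRIN, which binds endothelial nitric oxide synthase and moves it inside the cell, was at 248 CPM in CA4 barcodes and 102 CPM in CA4-0 barcodes with marked barcodes left out (ratio 2.44, 2.05 to 2.92). At equal depth 37.3% of CA4 barcodes had a UMI of NOSTRIN (166 of 445), against 16.1% of CA4-0 barcodes (33 of 205). LIFR, the receptor subunit for leukaemia inhibitory factor, was at 496 and 273 CPM (ratio 1.82, 1.63 to 2.03), and over all barcodes at 370 and 162 CPM (ratio 2.28). LIFR was detected at equal depth in 56.4% of CA4 barcodes (51.7 to 61.1%) and 37.1% of CA4-0 barcodes (30.4 to 44.1%). These intervals cover counting error only, and LIFR was named by its rank in the comparison of CA4 and CA4-0 barcodes.

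MME, a cell surface peptidase, was at 359 CPM in CA4 barcodes and 217 CPM in CA4-0 barcodes (ratio 1.66, 1.47 to 1.88). EDN3, which encodes the peptide endothelin 3, was at 173 and 86.3 CPM (ratio 2.01, 1.66 to 2.44). BDKRB2, a receptor for the vasodilator bradykinin, was at 99.01 and 57.8 CPM (ratio 1.71), and over all barcodes at 73.3 and 33.3 CPM (ratio 2.20, 1.74 to 2.81). All 3 had ratios above 1 in both comparisons, but only EDN3 passed the 2-fold limit without marked barcodes and only BDKRB2 over all barcodes. EDN3 was at 1.78 when mural- and stromal-marked barcodes were left out too.

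Several metabolic and transport genes stood on the same side. PYROXD2, a mitochondrial oxidoreductase gene, had the highest ratio of the named genes, at 54.6 CPM in CA4 barcodes and 11.8 CPM in CA4-0 barcodes (4.61, 2.82 to 8.05). SLC39A14, a zinc, iron and manganese importer, was at 53.3 and 20.9 CPM (ratio 2.55, 1.74 to 3.86). CPT1A, the gatekeeper of mitochondrial fatty acid oxidation, was at 83.7 and 43.2 CPM (ratio 1.94, 1.48 to 2.58). The actin regulator PHACTR1 (77.9 and 39.0 CPM) and the muscle protein gene CMYA5 (58.4 and 26.5 CPM) had ratios of 1.998 and 2.21. CADM1, an adhesion molecule, reached 1.84, the TGF-beta coreceptor TGFBR3 1.74, the ephrin EFNB1 1.71 and C1orf115 1.58. The sulfatase gene ARSK and the aldose reductase gene AKR1B1 had ratios of 2.15 and 1.79, and AKR1B1 was at 1.04 over all barcodes. ARSK was at 1.95 when mural- and stromal-marked barcodes were left out too.

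**Figure D2:**
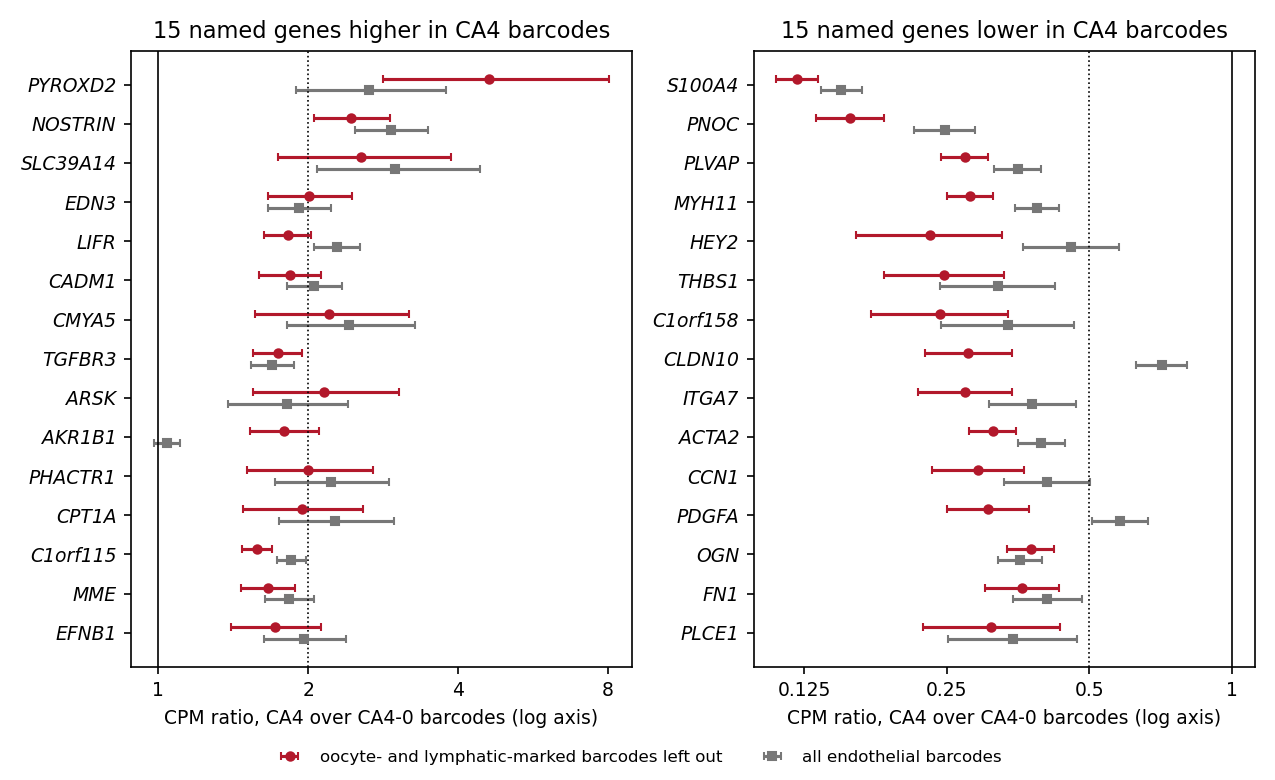
Ratio of CPM in CA4 barcodes over CA4-0 barcodes on a log axis for the 15 genes ranked first in each direction without marked barcodes, with exact 95% counting intervals; circles leave out oocyte- and lymphatic-marked barcodes, squares include all endothelial barcodes, and the dotted lines mark ratios of 2 and 0.5. PYROXD2 lies highest at 4.61 and S100A4 lowest at 0.121; AKR1B1 is at 1.04 over all barcodes.

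Genes lower in CA4 barcodes outnumbered those higher. S100A4, a small calcium-binding protein gene, was at 118 CPM in CA4 barcodes and 979 CPM in CA4-0 barcodes (ratio 0.121, 0.109 to 0.134). It was found at equal depth in 2.70% of CA4 barcodes (12 of 445) and in 17.1% of CA4-0 barcodes (35 of 205). A single CA4 barcode held 35.3% of its UMIs in that group. PLVAP, which forms the diaphragms of fenestrated capillaries, was at 124 and 454 CPM (ratio 0.273, 0.243 to 0.306), while the share of barcodes with a UMI at equal depth was 17.1% and 23.9%, with overlapping intervals. PNOC, the precursor of the peptide nociceptin, was at 49.7 and 318 CPM (ratio 0.156) and was found at equal depth in 2.70% and 7.80% of barcodes, with intervals that overlapped only at their ends (1.40 to 4.66% and 4.53 to 12.4%).

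Some of the lower genes belong to smooth muscle and stroma. MYH11, a smooth muscle myosin gene, was at 133 and 474 CPM (ratio 0.28), ACTA2, smooth muscle actin, at 131 and 418 CPM (ratio 0.312), and OGN, a matrix proteoglycan gene, at 144 and 382 CPM (ratio 0.376). Single CA4-0 barcodes held 31.1% of that group's MYH11 UMIs and 39.0% of its OGN UMIs. The mural marker list, 13 genes, summed to 662 CPM in CA4 barcodes and 1431 CPM in CA4-0 barcodes, and all 13 genes had UMIs in both groups. Per barcode its median was 0 CPM in both groups, the 90th percentile 1045 and 878 CPM and the highest value 3973 and 13270 CPM. The stromal list summed to 921 and 1444 CPM, with medians per barcode of 157 and 150 CPM. With mural- and stromal-marked barcodes left out as well, the number of lower genes was 60 in place of 141, MYH11 was at a ratio of 0.529, and PLCE1 turned from 0.31 to 1.09. S100A4 (0.0537), PNOC (0.183), PLVAP (0.297) and the matrix gene FN1 (0.344) were still lower under that setting.

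Arterial genes had the lowest median of the gene lists that could be compared without marked barcodes. Of 26 listed arterial genes 13 could be compared, and 8 were lower in CA4 barcodes and 0 higher, with a median log2 ratio of -1.08 beside -0.04 for all genes. HEY2 and HEY1, transcriptional repressors induced by NOTCH, were at 12.7 CPM in CA4 barcodes against 55.0 CPM in CA4-0 barcodes (ratio 0.23, 0.161 to 0.328), and at 17.8 against 56.4 CPM (ratio 0.315, 0.228 to 0.434). The chemokine CXCL12 was at 104.6 and 257 CPM (ratio 0.407), and its receptor CXCR4 at 196 and 353 CPM (ratio 0.555, 0.497 to 0.621). VEGFC and LTBP4 had ratios of 0.399 and 0.376. EFNB2, an ephrin of arterial cells, was at 589 and 659 CPM (ratio 0.894), NRP1 was at 0.913, and ALPL, a surface phosphatase gene, was the 1 arterial gene above 1 (ratio 1.53).

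The arterial median stayed between -1.31 and -0.81 over the 6 alternatives run without marked barcodes, and it was -0.81 without mural- and stromal-marked barcodes. The ratios of HEY1 (0.150) and CXCL12 (0.215) were further from 1 under that setting. Over all barcodes 3 of 16 arterial genes were lower and the median was -0.60. The low-level arterial genes GJA5, SOX17, BMX and DKK2 had too few UMIs to be compared, and were at 0.444, 2.66, 1.998 and 3.11 CPM in CA4 barcodes and at 12.5, 11.1, 16.7 and 13.9 CPM in CA4-0 barcodes.

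**Figure D3:**
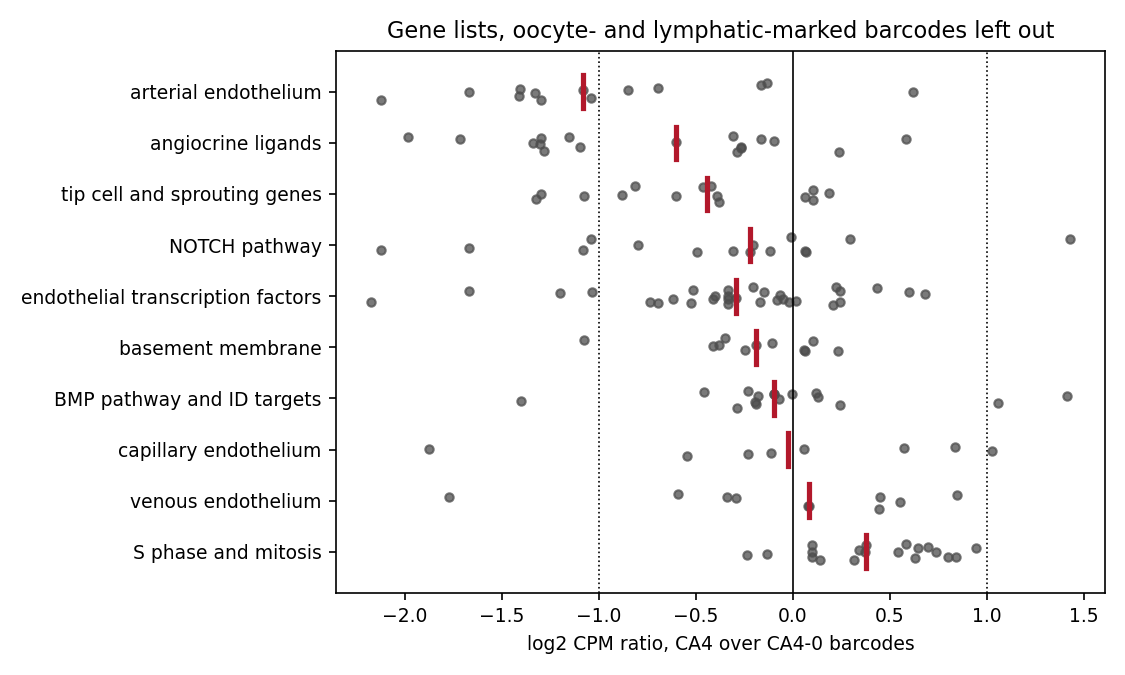
Log2 ratio of CPM in CA4 barcodes over CA4-0 barcodes for each comparable gene of 10 lists, without oocyte- and lymphatic-marked barcodes; each point is a gene, the red bar the median of its list, and the dotted lines ratios of 2 and 0.5. The arterial median lies at -1.08 and that of S phase and mitosis genes at 0.38.

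Of the NOTCH pathway, 2 ligands and 2 targets were lower, beside 2.47% lower and 1.05% higher of all genes compared. The ligands JAG1 (207 CPM in CA4 and 438 CPM in CA4-0 barcodes, ratio 0.473) and JAG2 (216 and 444 CPM, ratio 0.486) and the targets HEY1 and HEY2 made up the 4 lower genes of 15 compared, and all 4 also stand on the arterial list. JAG1 was at 0.561 without mural- and stromal-marked barcodes, so its call was lost there. The receptor gene NOTCH3, which is also a mural marker, was at 135 and 235 CPM (ratio 0.575, 0.503 to 0.659), and at 0.399 (0.340 to 0.467) between the strata with 2 or more and 0 CA4 UMIs at 2000 UMIs. The ligand DLL1 was at a ratio of 0.923, the receptors NOTCH1 and NOTCH4 at 0.808 and 0.868, the DNA-binding partner RBPJ at 1.04 and the target HES1 at 1.23, and the intervals of these 5 genes included 1. RFNG, a glycosyltransferase that modifies NOTCH receptors, was the 1 higher gene, at 2.69. That ratio rests on 59 UMIs (13.1 CPM) in CA4 barcodes and fewer in CA4-0 barcodes.

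Tip cell genes and secreted signals were also lower in part, beside 2.47% lower and 1.05% higher of all genes compared. Among 14 tip cell and sprouting genes 3 were lower and 0 higher. ESM1, a proteoglycan gene of sprouting endothelium, was at 268 CPM in CA4 barcodes and 661 CPM in CA4-0 barcodes (ratio 0.406, 0.373 to 0.443), with UMIs at equal depth in 25.6% and 38.0% of barcodes. The peptide hormone ADM was at 59.1 and 148 CPM (ratio 0.4) and the basement membrane protein NID2 at 0.475, whereas the collagens COL4A1 and COL4A2 stood at 1.04 and 1.07. Of 17 ligands that endothelium can send to its neighbours 8 were lower and 0 higher, among them EDN1, the vasoconstrictor endothelin 1 (111 and 247 CPM, ratio 0.449), TGFB2 (43.5 and 106 CPM, ratio 0.411) and PDGFA (44.6 and 146 CPM, ratio 0.305). PDGFA was at 0.624 and EDN1 at 0.515 without mural- and stromal-marked barcodes, so both calls were lost there. KITLG, the ligand of the KIT receptor, was at 195 and 235 CPM (ratio 0.83), and SEMA3F at 64.6 and 43.2 CPM (ratio 1.496).

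Capillary and venous genes had no common direction, and their few calls stand beside 1.05% higher and 2.47% lower of all genes compared. Of 8 capillary genes compared, the lipid transporter gene MFSD2A was higher (18.4 CPM in CA4 and 9.05 CPM in CA4-0 barcodes, ratio 2.04, 1.13 to 3.98), PLVAP was lower, and the median log2 ratio was -0.03, on either side of 0 under the alternatives. MFSD2A was at 1.49 without mural- and stromal-marked barcodes, so its call was lost there. Of 10 venous genes 0 were higher and 1, CPE, was lower. SELP, which encodes the leukocyte adhesion molecule P-selectin, was at 59.9 and 33.4 CPM (ratio 1.79, 1.32 to 2.49) and was found at equal depth in 11.9% of CA4 and 4.88% of CA4-0 barcodes. VWF, the clotting factor stored with it, was at 731 and 535 CPM (ratio 1.36, 1.26 to 1.48). NR2F2, the regulator of vein identity, was at 313 and 384 CPM (ratio 0.816), and at 1.12 without mural- and stromal-marked barcodes. LYVE1, a hyaluronan receptor of lymphatic and some blood vessels, was at 786 and 538 CPM (ratio 1.46, 1.35 to 1.58), although PROX1 was at 0 UMIs in these barcodes by the rule that set them apart.

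Among genes related to CA4 by function, the cytosolic enzyme gene CA2 was at 15.3 CPM in CA4 barcodes and 7.66 CPM in CA4-0 barcodes (ratio just under 2, 1.05 to 4.19), and the bicarbonate transporter gene SLC4A7 at 27.3 and 11.1 CPM (ratio 2.45, 1.45 to 4.42). CA3 was at 7.77 and 12.5 CPM (ratio 0.62, 0.342 to 1.16). Of 6 such genes compared 1, SLC4A7, was higher and 0 lower. Transcription factors of endothelium were mostly close to 1: of 31 compared 0 were higher and 4 lower, beside 1.05% and 2.47% of all genes. FLI1 was at 495 and 327 CPM (ratio 1.51) and ZNF366 at 129 and 80.8 CPM (ratio 1.60), while MECOM was at 253 and 409 CPM (ratio 0.618) and MEOX1 at 10.7 and 48.0 CPM (ratio 0.222).

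Genes of the general endothelial programme mostly stayed within the 2-fold limit between CA4 and CA4-0 barcodes. Of 18 junction genes and of 17 endothelial genes outside the rule, 0 were higher and 0 lower in CA4 barcodes. Over all genes compared 1.05% were higher and 2.47% lower, so counts of 0 in lists of this size say little. The median log2 ratios were -0.14 and -0.23, both further below 0 than that of all genes. PECAM1, a junction molecule of all endothelium, was at 632 CPM in CA4 barcodes and 944 CPM in CA4-0 barcodes (ratio 0.669), and CDH5, the adherens junction cadherin gene, had a ratio of 0.996. Among 15 genes of VEGF and angiopoietin signalling 2 ligands, VEGFC and VEGFA, were lower and 0 were higher. The receptor genes KDR (1.05), also a rule gene, and FLT1 (1.17) lay close to 1. Of 13 genes of caveolae and transport across the cell 1 was higher, MFSD2A, and 1 was lower, PLVAP, and the caveolar coat gene CAV1 was at 431 and 609 CPM (ratio 0.707).

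Genes of the BMP pathway, which quiets endothelium in many vessels, held 2 higher and 1 lower of 16. Of all genes compared 1.05% were higher and 2.47% lower. ATOH8 was at 46.4 CPM in CA4 barcodes and 22.3 CPM in CA4-0 barcodes (ratio 2.08, 1.43 to 3.12), and FST, an inhibitor of activins and BMPs, at 16.7 and 6.27 CPM (ratio 2.66). FST also marks another cell type of this library, and the 9 markers of that type summed to 46.2 CPM in CA4 barcodes and 28.5 CPM in CA4-0 barcodes. ID1 and ID3, direct BMP targets, had ratios of 1.09 and 1.18, and ID4 was lower, at 0.379. Of 11 genes that respond to tissue dissociation 1, FOSB, was higher (30.4 and 11.8 CPM, ratio 2.57).

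The macrophage list summed to 4.66 CPM in CA4 barcodes and 10.4 CPM in CA4-0 barcodes, with CSF1R, C1QB, CD163 and TYROBP at 0 in both. The lymphoid list summed to 26.2 and 20.9 CPM, with the T cell genes CD3D, CD3E, CD3G and CD2 at 0 in both, and the oocyte list to 98.6 and 127 CPM after oocyte-marked barcodes were left out. The mesothelial list summed to 420 CPM in CA4 barcodes and 287 CPM in CA4-0 barcodes, against 454 CPM in the other barcodes of the library. WT1, which is on that list, made up 414 and 274 CPM of those sums, and LRRN4, KLK11 and UPK1B were at 0 in both groups.

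Genes of DNA replication and mitosis lay mostly just above 1. Of 19 compared, 17 had a ratio above 1, beside 2513 of all 5704 genes, but 0 passed the 2-fold limit, and the median log2 ratio was 0.38. KIF11, a spindle motor gene, had a ratio of 1.92, CKAP2 1.67, CENPF 1.55 and TOP2A, the mitotic topoisomerase gene, 1.29. TOP2A was found at equal depth in 8.76% of CA4 barcodes (39 of 445) and in 5.85% of CA4-0 barcodes (12 of 205), and the intervals overlapped.

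Levels of several genes differed in step with the CA4 UMIs left after thinning to equal depth. The 650 endothelial barcodes without markers of oocytes or lymphatics that reached 2000 UMIs were thinned to that depth and parted by CA4 into 298 with 0 UMIs, 247 with 2 or more and the rest with 1. Of the 298 barcodes 93 had CA4 at full depth. The levels use all UMIs of each barcode, with medians of 5492.5, 7256 and 6169 UMIs in the strata with 0, 1 and 2 or more. Of 5323 genes 26 were higher in the stratum with 2 or more UMIs than in the stratum with 0 (0.488%) and 167 were lower (3.14%). SELP was at 28.5, 39.0 and 87.6 CPM with 0, 1 and 2 or more CA4 UMIs, ATOH8, a BMP target, at 23.1, 42.0 and 59.6 CPM, and NOSTRIN at 143, 200 and 300 CPM. KLF2, a transcription factor induced by blood flow, was at 669, 816 and 999 CPM. SOX18 was at 833, 817 and 904 CPM.

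The genes lower in the stratum with 2 or more CA4 UMIs had more than one shape. S100A4 was at 644, 201 and 24.0 CPM over the same strata, ESM1 at 529, 375 and 148 CPM and MYH11 at 381, 139 and 64.5 CPM. JAG2 was at 380, 184 and 184 CPM, and MECOM at 405, 200 and 199 CPM, so that both differed between the strata with 0 and 1 UMI and not between those with 1 and with 2 or more. PNOC was at 179, 159 and 25.8 CPM. The stratum with 1 UMI at 2000 UMIs includes barcodes with more CA4 UMIs at full depth. Of 13 arterial genes 9 were lower in the stratum with 2 or more UMIs than in that with 0, with a median log2 ratio of -1.03. The mural list was lower with more CA4 too, at 1296, 634 and 457 CPM in sum, and the stromal list at 1299, 976 and 825 CPM; their part in the differences between strata was not tested.

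**Figure D4:**
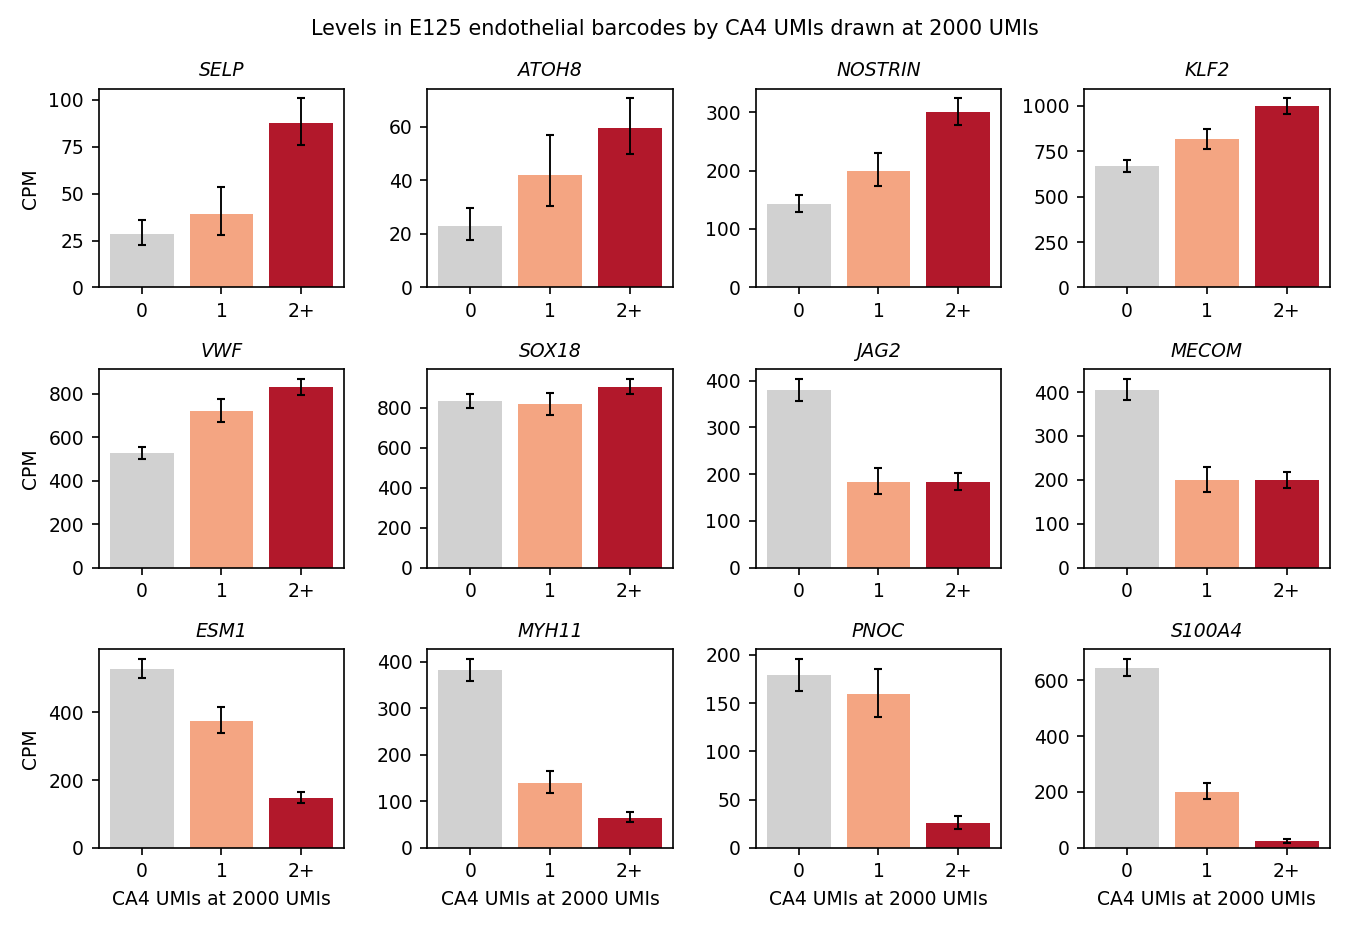
CPM of 12 genes in E125 endothelial barcodes without oocyte or lymphatic markers, grouped by CA4 UMIs after thinning to 2000 UMIs (0, 1, 2 or more), with levels from all UMIs of each barcode; bars start at 0 and error bars are exact 95% Poisson intervals. SELP climbs from 28.5 to 87.6 CPM over the strata, and S100A4 drops from 644 to 24.0 CPM.

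Per barcode, the share with CA4 was set against the detection of other genes, as a description of 1 library. At equal depth CA4 was present in 76.9% of barcodes with UMIs of 0 arterial list genes (30 of 39), 62.1% of those with 1, 64.1% with 2, 51.7% with 3 and 38.7% with 4 or more (74 of 191). Barcodes with S100A4 had CA4 in 11.6% of cases (5 of 43), against 57.2% of barcodes without it. HEY1 gave 16.0% (4 of 25) against 55.7%, and CXCR4 35.9% (55 of 153) against 59.8%. For MECOM the shares were 40.4% and 60.4%. VWF went the other way, with CA4 in 59.3% of barcodes that had VWF and in 42.4% of those without it, and NOSTRIN gave 66.1% and 49.4%. SOX18, with 54.0% and 54.6%, did not separate them, but it is a rule gene that helped to choose these barcodes. EDN1 and PLVAP, whose summed levels were lower in CA4 barcodes, gave overlapping intervals at 51.8% against 54.7% and at 51.1% against 55.0%.

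**Figure D5:**
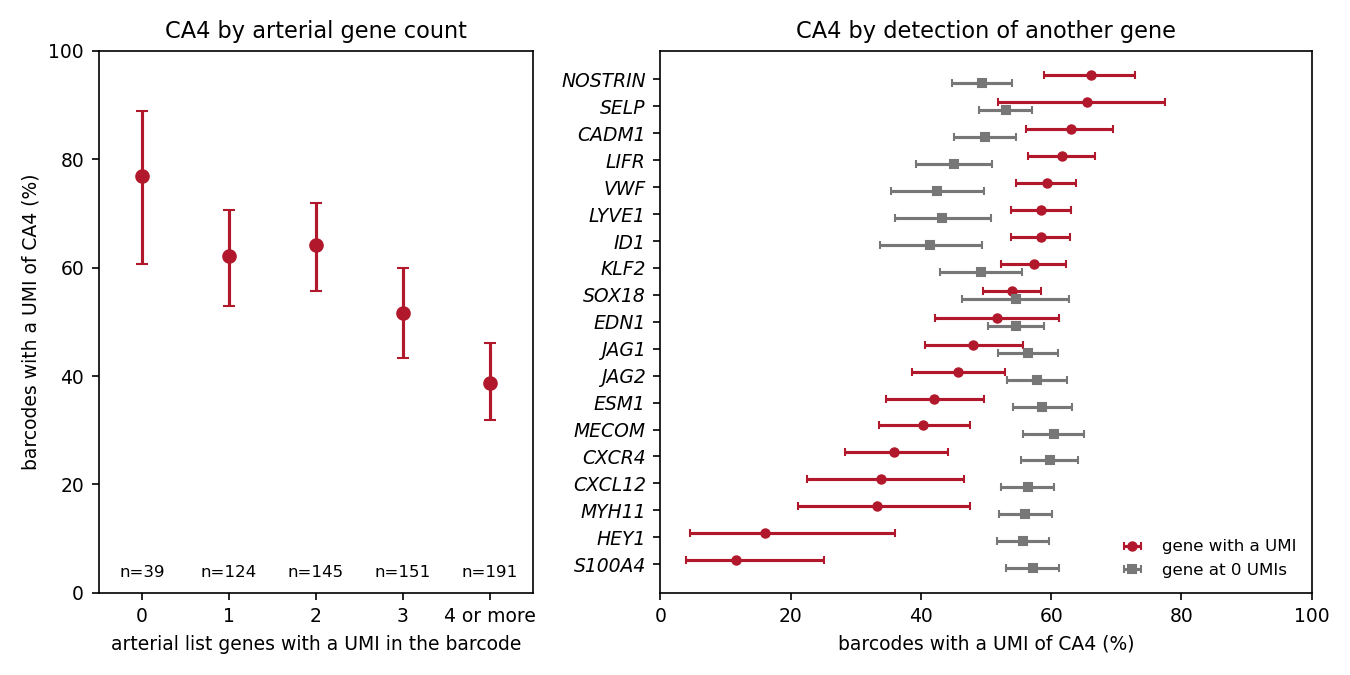
Share of E125 endothelial barcodes with a UMI of CA4, in percent with exact 95% intervals, all thinned to 2000 UMIs: left by the number of arterial list genes detected in the barcode, right by whether another gene had a UMI (circles) or none (squares). The share is 76.9% with 0 arterial genes and 38.7% with 4 or more, and it is lowest, at 11.6%, where S100A4 was detected.

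Within the members, barcodes with 3 or more CA4 UMIs were set against those with 1 UMI, without marked barcodes, at full depth (median 7238 and 4477.5 UMIs). Of 5002 genes 173 were higher (3.46%) and 91 lower (1.82%). KLF4, a flow-induced factor like KLF2, was at 208 CPM with 3 or more and 63.2 CPM with 1 UMI (ratio 3.29, 2.24 to 5.02), KLF2 at 918 and 459 CPM (ratio 1.999) and SELP at 67.9 and 9.37 CPM (ratio 7.25, 2.80 to 26.8). KLF4, KLF2 and SELP with 1 UMI lay below their levels in CA4-0 barcodes, and the SELP level with 1 UMI rests on 4 UMIs. In the strata by CA4 at 2000 UMIs, which part the barcodes differently, KLF4 was at 200, 188 and 218 CPM for 0, 1 and 2 or more CA4 UMIs. ESM1 (203 and 679 CPM, ratio 0.299), ADM (43.9 and 166 CPM, ratio 0.264) and the transcription factor PRDM1 (57.7 and 180 CPM, ratio 0.32) were lower. JAG2 was at 200 and 293 CPM (ratio 0.682) and MECOM at 221 and 386 CPM (ratio 0.572), and for MECOM the level with 1 UMI lay near the 409 CPM of CA4-0 barcodes. S100A4 and PNOC went against their order in the strata by CA4 at 2000 UMIs. S100A4 was at 118 CPM with 3 or more and 79.6 CPM with 1 UMI (ratio 1.49, 1.05 to 2.17), where 1 barcode held all 34 UMIs of the group with 1 UMI. PNOC had 95 UMIs (25.6 CPM) with 3 or more and 0 UMIs in the 64 barcodes with 1. The interferon-induced chemokines CXCL9 and CXCL10 were at 63.6 and 7.02 CPM and at 109 and 21.1 CPM. The levels with 1 UMI rest on 3 UMIs of CXCL9 and 9 of CXCL10, and the CXCL9 ratio had an interval of 3.06 to 44.2. Between the strata with 2 or more and 0 CA4 UMIs at 2000 UMIs the ratios were 1.77 (1.41 to 2.24) and 1.20 (0.988 to 1.46).

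The 47 lymphatic-marked CA4-0 barcodes without oocyte markers differed from CA4 barcodes far more widely. Of 5299 genes 1163 were higher in CA4 barcodes (21.9%) and 300 lower (5.66%). CCL21, which helped to choose the lymphatic-marked barcodes, was at 9.55 CPM in CA4 barcodes and 45994 CPM in the lymphatic-marked ones, a contrast set by that rule. VWF was at 731 and 18.4 CPM (ratio 39.6, 19.2 to 98.6), ESAM, a tight junction molecule, at 706 and 31.6 CPM (ratio 22.3), LIFR at 496 and 15.8 CPM and MECOM at 253 and 15.8 CPM (ratio 16.0). SOX18, a rule gene, was at 838 and 1041 CPM (ratio 0.805). LYVE1 was at 786 and 891 CPM (ratio 0.882), so these 2 genes were close in both. These barcodes were chosen at 0 UMIs of CA4, and 3 of all 52 lymphatic-marked endothelial barcodes had CA4.

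CA4 barcodes of E125, again without marked barcodes, were last set beside the endothelium of the earlier libraries, 254 barcodes at E105 and 287 at E85. Against E105 704 of 5800 genes were higher (12.1%) and 340 lower (5.86%), and against E85 1009 of 5817 were higher (17.3%) and 283 lower (4.87%); both comparisons use the same CA4 barcodes. CYP26B1, the retinoic acid-degrading enzyme gene, was at 199 CPM in CA4 barcodes, against 3.63 CPM at E105 and 6.43 CPM at E85, and at 237 CPM in the E125 CA4-0 barcodes. ID1 was at 3006 CPM in CA4 barcodes, 376 CPM at E105 and 98.0 CPM at E85. Its ratio over the E125 CA4-0 barcodes was only 1.09, so this level was not particular to CA4 barcodes. The inhibitor gene SMAD6 was at 12.9, 1.82 and 1.07 CPM and the NOTCH target HES1 at 77.7, 13.3 and 6.96 CPM in the same order.

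Of 10 capillary genes compared with E105 3 were higher in CA4 barcodes and 2 lower, and of 9 compared with E85 6 were higher and 1 lower. Over all genes the shares were 12.1% higher and 5.86% lower against E105, and 17.3% and 4.87% against E85. Of the flow response genes 2 of 8 were higher and 0 lower against E105, and 2 of 10 higher and 1 lower against E85. KLF2 was at 848 CPM in CA4 barcodes, 167 CPM at E105 and 132 CPM at E85, and KLF4 at 189, 46.0 and 57.8 CPM. SOX18, a rule gene in every library, was at 838, 211 and 138 CPM. RGCC was at 24.9, 1.21 and 1.07 CPM, MFSD2A at 18.4, 1.82 and 1.07 CPM and MME at 359, 56.9 and 59.4 CPM. Within E125 the ratios over CA4-0 barcodes were 1.18 for KLF2, 0.753 for KLF4 and 0.901 for SOX18. The levels of KLF2, KLF4 and SOX18 were thus not particular to CA4 barcodes. For RGCC, MFSD2A and MME these ratios were 1.49, 2.04 and 1.66. CD36, a capillary and fatty acid receptor gene, was lower, at 1.33 CPM in CA4 barcodes, 59.96 CPM at E105 and 24.1 CPM at E85, and PNOC at 49.7, 1222 and 645 CPM. Markers of mural cells also differed: HIGD1B, a pericyte gene, was at 130 CPM in CA4 barcodes and 0.536 CPM at E85, and MYH11 at 133 and 3.21 CPM, and the part of mural RNA in these comparisons was not tested. The rule gene CDH5 was at 169, 262 and 247 CPM, within the 2-fold limit. So were NOSTRIN (248, 310 and 280 CPM) and LIFR (496, 592 and 599 CPM). NOSTRIN and LIFR, ranked high within E125, thus had ratios under 1 against earlier endothelium, where CA4 was at 6.43 CPM or less. AMH, at 0.444 CPM in CA4 barcodes and at 168 and 117 CPM in the endothelium of E105 and E85, is a Sertoli cell gene and differs with the content of each library, and its level there cannot be told apart from free RNA.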

How the data were processed

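The deposited files hold raw counts of UMIs per feature and barcode as filtered matrices, made with Cell Ranger, which is version 6.0.0 per the file headers but 3.1 in the submitters' processing notes. Their genome build is not given in the sources used here. Features carry the symbols of the files, without coordinates or sequences. The libraries hold 40741902 to 49692252 UMIs in 7478 to 8520 barcodes. Of 27271 features 10655 had no symbol and held 39.5% of UMIs; they stayed in the totals but were not compared. Barcodes stayed in with 1000 or more UMIs, unless 13 mitochondrial genes held over 20% of them.

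UMIs were summed per group with Python 3.11.15, numpy 2.4.6, scipy 1.17.1 and pandas 2.3.3. All intervals are exact at 95%, by Clopper and Pearson's method for a share, from the Poisson distribution for a level, and from the binomial split of 2 sums for a ratio. Limits of a count of 0 use 3 counts. Cells of 1 library are not replicates, so no test was run. The ratio intervals were checked on counts simulated without variation between barcodes, and thinning was checked to give 2000 UMIs per barcode. Shares were compared after drawing 2000 UMIs per barcode. No doublet caller was run; barcodes with at least 4 UMIs over at least 3 genes of another lineage's list were counted and left out in alternatives.

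Named genes were, per comparison, the 15 highest and 15 lowest by the interval bound nearest 1, among genes with at least 50 CPM in the higher group and not more than 10 times that level in the library's other barcodes, without ribosomal-protein, mitochondrial and haemoglobin genes, plus listed genes. Genes were grouped in 32 lists of 517 genes, of which 453 genes had a feature. The members, lists and rules were chosen with earlier results of these data known. The comparisons without oocyte- and lymphatic-marked barcodes, the strata by CA4 at 2000 UMIs and co-detection were added after seeing the data. Figures were drawn with matplotlib 3.10.9.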

Additional observations from a re-analysis of the deposited data

How the results depend on the processing

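No paired analysis was possible because each stage is 1 library and the comparison is made within it. The share of E125 endothelial barcodes with CA4 (63.2%) was 54.2% when 2 UMIs were required, 51.7% at 2000 UMIs, 59.8% without barcodes of other lineages, 67.3% without lymphatic-marked barcodes and 67.0% without both marked kinds. The 76 higher and 144 lower genes became 31 and 58 at 2000 UMIs, 246 and 315 with the mean CPM per barcode, 234 and 281 from 20 UMIs, 1525 and 1308 with no minimum, and 49 and 91 without lymphatic-marked barcodes. Matching the depth of CA4-0 barcodes gave 127 higher. Without both marked kinds, the 60 higher genes became 113 with the mean CPM per barcode and 107 with matched depth, and the 141 lower genes became 61 without barcodes of other lineages and 60 without mural- and stromal-marked ones. PARD6G (0.10 over all barcodes) turned to 1.06 without both marked kinds. PLCE1 (0.31) turned to 1.09 without barcodes of other lineages and to 1.09 without mural- and stromal-marked ones. The cause of these turns was not tested. Of the ratios of named genes without both marked kinds, 310 stayed within the interval of the value reported, 108 moved outside it and 2 turned, over the 6 alternatives. The lower UMI minimums by construction add genes with few counts. Low-level arterial and capillary genes could not be compared at this depth.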

Other observations

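HBAI, a globin gene kept out of the named genes, was at 199 CPM in CA4 barcodes and 33.3 CPM in CA4-0 barcodes, but only 24 of 499 CA4 barcodes had a UMI and 1 of them held 67.1% of the group's UMIs. CXCL10, an interferon-induced chemokine gene, was at 78.4 CPM in CA4 barcodes and 55.0 CPM in CA4-0 barcodes, and at 458 CPM in the other barcodes of the library.

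The genes ranked first as higher over all barcodes included WT1, a transcription factor of gonadal somatic and mesothelial cells. WT1 was at 414 CPM in CA4 barcodes and 274 CPM in CA4-0 barcodes without marked barcodes (ratio 1.51), with a UMI in 83.1% and 62.1% of barcodes at their own depths, and at 15.8 CPM in lymphatic-marked CA4-0 barcodes. In endothelium of the earlier libraries it was at 221 CPM at E85 and 274 CPM at E105, and in the other barcodes of E125 at 291 CPM. The WT1 level thus differed between CA4 and lymphatic-marked barcodes of the same library, at a ratio of 26.2 (12.0 to 71.4).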
